A study of Drosophila melanogaster with 3 samples.

Results

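The genes described here are 10 Drosophila genes of protein folding and stress in the endoplasmic reticulum, of 13945 protein-coding genes in all. They are the chaperones and folding enzymes Calr, Hsc70-3, Gp93 and Pdi, the stress sensors Ire1 and PEK with the transcription factors Xbp1 and crc, and the degradation genes Hrd3 and sip3. They were chosen by name with earlier results of these data in view, in which the signal rank of the promoter peaks of Calr, Xbp1, Hrd3 and Hsc70-3 was known, so ranks are given as a description with no test. Around these genes, 17 of the 6221 peaks of the authors' optimal list had their summit inside a gene or within 5 kb of it. The optimal list is the set of peaks the authors kept as reproducible over their replicates, and rank 1 is the peak with the highest signal.

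The data are chromatin immunoprecipitation with sequencing of GFP-tagged Nf-YB in whole Drosophila melanogaster embryos of 0 to 24 h, males and females pooled. The animals came from the transgenic strain Nf-YB-GFP, in which GFP sits at the C-terminal end of Nf-YB, and an anti-GFP antibody was used. There are 3 biological replicates, all of 1 group, so no other genotype, treatment or stage was compared. Whole embryos mix all cell types, the lists carry no read counts, and the depth of each replicate is unknown.

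NF-Y, to which Nf-YB belongs, is a transcription factor of 3 subunits that binds DNA at the CCAAT box. In the endoplasmic reticulum, chaperones fold secreted and membrane proteins, and unfolded protein sets off the unfolded protein response. Its sensor Ire1 splices the mRNA of the transcription factor Xbp1, its sensor PEK (PERK in mammals) slows translation and favours synthesis of the factor crc (ATF4 in mammals), and the Hrd1 ubiquitin ligase (sip3 in the fly) with its partner Hrd3 sends misfolded proteins to the proteasome. In mammals, promoters of such chaperones carry an ER stress response element, in which NF-Y binds a CCAAT box beside a CCACG site for ATF6.

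The promoter sequences under the summits are shown first, since the boxes they hold differ among the genes. Each is written 5′ to 3′ along the strand of its gene, from the RefSeq copy of the dm6 assembly. Capitals mark the CCAAT box on either strand (ATTGG where it lies on the other strand) and TGACGTG on either strand (CACGTCA on the other strand), a sequence of the kind bound by fly Xbp1 and CrebA. The Calr sequence (chr3R:9630852-9630983, minus strand) runs from 50 bp upstream of the summit to the last base before the TSS and is shown for its 3 CCAAT boxes. The Hsc70-3 sequence (chrX:11805666-11805766, minus strand) covers 50 bp to either side of the summit and is shown for TGACGTG without a CCAAT box. The Hrd3 sequence (chr3R:23758107-23758207, minus strand) and the Ire1 sequence (chr3R:19861421-19861521, minus strand) are windows of the same size that hold neither. For PEK (chr3R:5464675-5464704, minus strand) and Gp93 (chr3R:27948788-27948817, plus strand), whose summits lie in the 5′ UTR, 30 bases around the single matching site are shown.
Calr: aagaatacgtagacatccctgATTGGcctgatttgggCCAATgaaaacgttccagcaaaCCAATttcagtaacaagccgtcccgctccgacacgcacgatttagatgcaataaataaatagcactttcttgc
Hsc70-3: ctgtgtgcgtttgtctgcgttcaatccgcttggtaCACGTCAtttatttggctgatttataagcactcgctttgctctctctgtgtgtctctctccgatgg
Hrd3: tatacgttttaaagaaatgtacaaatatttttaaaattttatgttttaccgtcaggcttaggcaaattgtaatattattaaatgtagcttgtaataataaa
Ire1: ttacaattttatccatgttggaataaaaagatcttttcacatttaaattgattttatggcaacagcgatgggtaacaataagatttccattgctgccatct
PEK: gcgttttgcggcCCAATcggaacaaaaaca
Gp93: tctgttattcgTGACGTGgcctttcgccgg

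Of the 10 genes, 8 had an optimal summit within 500 bp of a transcription start site (TSS) of their own, a window called the promoter here. Among all protein-coding genes the share was 21.6%, and since the genes were chosen with such peaks known, nothing is read from the difference. The 8 were Calr, Hsc70-3, Gp93, Pdi, Ire1, PEK, Xbp1 and Hrd3. No optimal summit lay at the promoter of sip3, and crc had none inside the gene or within 5 kb. An optimal summit inside the gene or within 5 kb was found for 9 of the 10 genes and for 50.2% of all protein-coding genes.

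**Figure D1:**
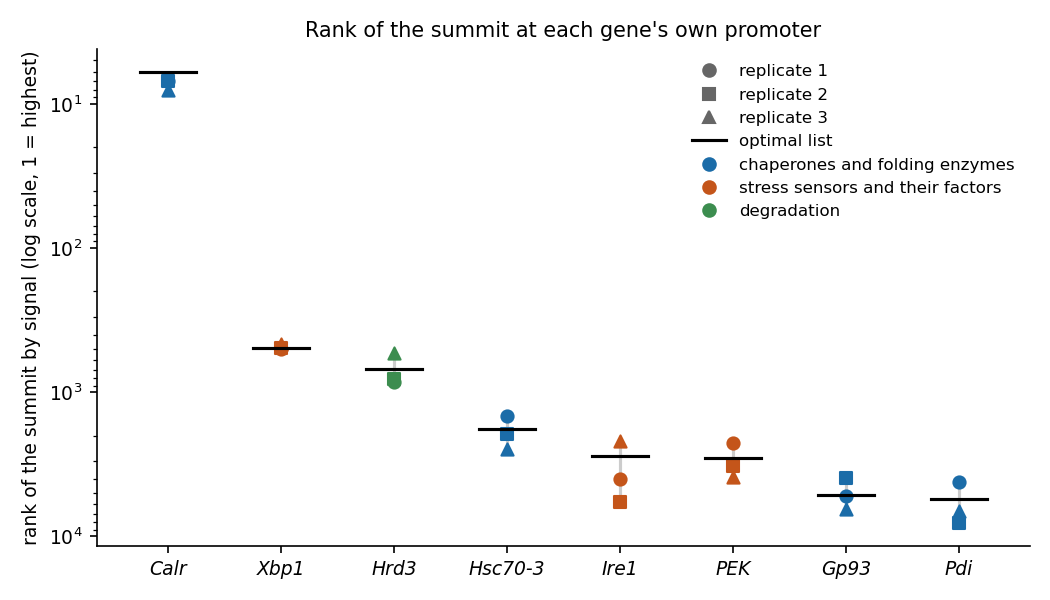
Rank by signal on a log axis, with rank 1 at the top, of the summit at the promoter of each of 8 genes. Symbols are the 3 replicates, a black bar is the rank in the optimal list and colours are roles; Calr sits at ranks 6 to 8 in every list, and the other 7 genes lie between ranks 463 and 8087.

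Among the chaperones, Calr (FBgn0005585), which encodes the calcium-binding lectin chaperone calreticulin, stood far above the rest. Its promoter summit had rank 6 in the optimal list and ranks 7, 7 and 8 in replicates 1, 2 and 3 (mean 7.33 ± 0.577, SD, n = 3), at 109 times the median signal of the optimal list. Relative to the median of its own 6221 highest peaks, the signal was 111, 101 and 99.1 times as high in replicates 1, 2 and 3. The replicate summits lay 0, 10 and 3 bp from the optimal one, so all lists placed it on the same bases, 82 bp upstream of the only annotated TSS. The interval, on 3R from 9629988 to 9631775, reached 924 bp upstream and 863 bp downstream of the TSS. It was 1788 bp wide in the optimal list and 1485, 1564 and 1663 bp wide in the replicates. Among the 20 highest peaks, whose median width was 1274.5 bp, 4 were wider.

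Hsc70-3 (FBgn0001218), the fly BiP and the main Hsp70 chaperone of the endoplasmic reticulum, had ranks 1452, 1944 and 2469 in replicates 1, 2 and 3, and rank 1805 in the optimal list (X from 11805592 to 11805849). The summit lay 352 bp upstream of the nearest of 4 annotated TSSs and in an intron of the transcripts that start farther upstream. The peak was narrow, 258 bp in the optimal list and 230, 230 and 180 bp in the replicates. Gp93 (FBgn0039562), the fly form of the Hsp90 chaperone GRP94, had ranks 5262, 3966 and 6488, with the summit in the 5′ UTR, 140 bp downstream of the TSS (3R from 27948629 to 27949072). Pdi (FBgn0286818), a protein disulfide isomerase that forms and rearranges disulfide bonds, had ranks 4205, 8087 and 6680, with the summit 29 bp downstream of a TSS (3L from 15142341 to 15142784). Both of these summits were weak, at 0.653 and 0.625 times the median signal of the optimal list, whose lowest peak was at 0.568. An annotated antisense RNA, asRNA:CR45396, also covers the Pdi summit.

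Among the sensors and factors, ranks also differed widely. Xbp1 (FBgn0021872), the bZIP factor made after splicing by Ire1, had the strongest promoter summit of the group, with ranks 500, 491 and 463 in replicates 1, 2 and 3 (mean 485 ± 19.3, SD, n = 3) and 6.26 times the median signal. Its peak lay on 2R from 21143192 to 21143873, was 682 bp wide, and had the summit in the 5′ UTR, 37 bp downstream of a TSS. PEK (FBgn0037327), the kinase that phosphorylates eIF2alpha, had ranks 2234, 3253 and 3903, with the summit in the 5′ UTR, 100 bp downstream of a TSS (3R from 5464431 to 5464874). Ire1 (FBgn0261984), the kinase and endoribonuclease, had ranks 3984, 5735 and 2178, and replicate 3 placed it highest. The summit at Ire1 lay 180 bp upstream of its TSS (3R from 19861249 to 19861692) and 139 bp upstream of the TSS of Mrm2, which runs the other way, and the lists cannot assign it to either gene.

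The factor crc (FBgn0000370) had no optimal summit near it, and 4 pooled summits below the optimal list lay within 5 kb, at ranks 12030 to 17763 of 30000. The only one of them within 500 bp of a crc TSS, 354 bp upstream, had rank 17763 and was matched in replicate 3 alone, at rank 8885. Replicates 1 and 2 held no summit in this window, and replicate 3 held 3, the highest at rank 7606.

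Of the degradation genes, Hrd3 (FBgn0028475), the membrane partner of the Hrd1 ligase, had ranks 854, 811 and 532 in replicates 1, 2 and 3 and 4.11 times the median signal (3R from 23757928 to 23758377, width 450 bp). The summit lay 140 bp upstream of the downstream one of its 2 TSSs, in an intron of the longer transcript, and 182 bp upstream of the TSS of the neighbour PTPMT1. The ligase gene sip3 (FBgn0039875) had promoter summits only below the optimal list, at pooled ranks 7315 and 17376. The stronger, with replicate ranks 7683, 4915 and 17223, lay 358 bp upstream of the sip3 TSS but 13 bp from a TSS of betaGlu. The weaker lay 45 bp upstream of the sip3 TSS, the nearest one, and was matched at ranks 20262 and 27517 in replicates 2 and 3 and not in replicate 1. In replicate 2 alone the stronger summit would have passed a list of 6221 peaks. The optimal summit nearest to sip3, with rank 2111, lay 1665 bp from the gene and 176 bp upstream of the TSS of CG2126.

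The roles overlapped in the rank, width and position of the promoter summits, and in GC content the single degradation gene, Hrd3, at 20.8%, lay below the chaperones (43.6% to 53.5%) and the sensors and factors (30.7% to 47.5%). Chaperones ran from rank 6 to 5472 with a median of 3503.5 (4 genes), sensors and factors from 491 to 2877 with a median of 2791 (3 genes), and Hrd3, the only degradation gene with such a summit, had rank 692. The best-ranked gene of each role was Calr, Xbp1 and Hrd3. The 8 summits together had a median rank of 2298, against 2937 for the strongest promoter summit of all protein-coding genes that had one. The ranks of Calr, Xbp1, Hrd3 and Hsc70-3 were known when the genes were chosen. Nothing is therefore read from this difference or from which gene ranked best in each role. The remaining promoter summits, of Ire1, PEK, Gp93 and Pdi, had ranks from 2791 to 5472. When the strongest summit within 5 kb was taken, whatever gene it lay next to, the median over 9 genes was 1805.

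Many widths took 1 common value. The optimal list gives exactly 444 bp to 53.3% of its peaks and for 4 of the 8 promoter peaks, those of Ire1, PEK, Gp93 and Pdi. In the replicate lists the same 4 genes had the corresponding common widths of 424, 490 and 436 bp. In the optimal list, Calr at 1788 bp and Xbp1 at 682 bp were wider than 444 bp, Hrd3 at 450 bp was close to it, and Hsc70-3 at 258 bp was below it. The Hrd3 peak varied among the replicates, at 222, 389 and 450 bp in replicates 1, 2 and 3.

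**Figure D2:**
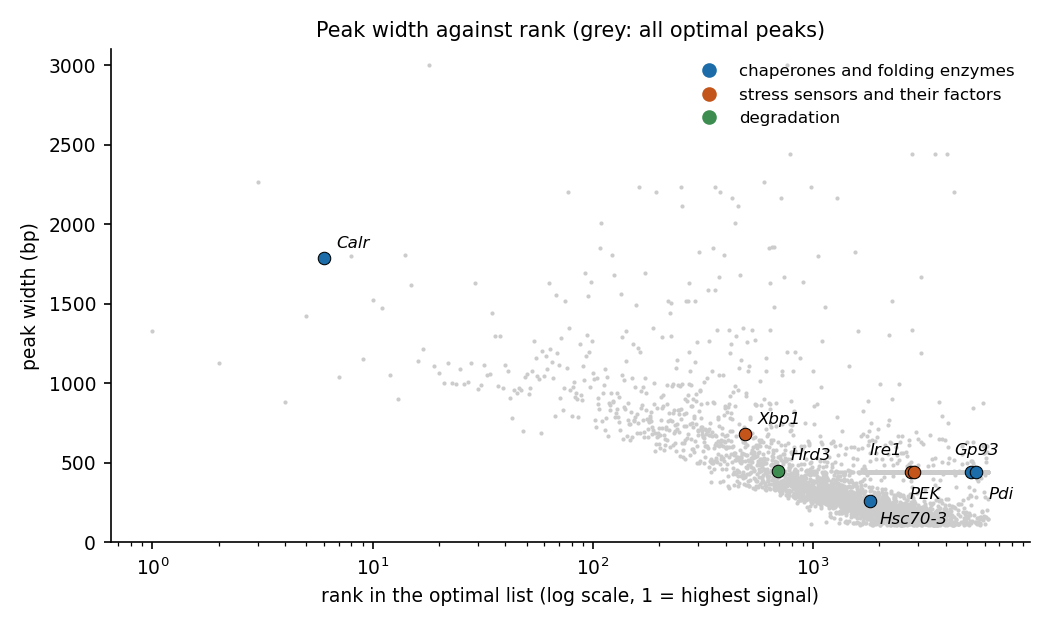
Peak width in bp against rank in the optimal list on a log axis, for all 6221 peaks (grey) and the promoter peaks of 8 genes (coloured by role). The horizontal band is the common width of 444 bp, which Ire1, PEK, Gp93 and Pdi share; Calr (1788 bp) and Xbp1 (682 bp) lie above it.

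Summits lay on both sides of the start sites. Those of Calr, Hsc70-3, Ire1 and Hrd3 were upstream of the nearest own TSS and those of Gp93, Pdi, PEK and Xbp1 downstream, so 4 of 8 were upstream. Of all optimal promoter summits, 76.9% were upstream of the nearest TSS, with a median position of -104 bp. By role, 2 of 4 chaperones, 1 of 3 sensors and factors and the 1 degradation gene had the summit upstream.

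The other 9 optimal summits around these genes lay outside the genes' own promoters. Of these, 8 were within 250 bp of a TSS of another protein-coding gene, namely CG8319 by Calr, CG12316 (a pair of summits) and Pex3 by Pdi, CG4686 by Ire1, RpL35A by PEK, Hmg-2 by Xbp1 and CG2126 by sip3. The ninth, with rank 5615, lay in the 3′ UTR of Calr, 1481 bp from the TSS of CG8319. In the optimal list the neighbour's summit outranked the gene's own at Pdi and PEK. The summit at CG12316 had rank 1264 against 5472 at the Pdi promoter, and it was the higher of the 2 in each replicate. The summit at RpL35A, a ribosomal protein gene, had rank 2413 against 2877 at the PEK promoter. In the replicates the RpL35A summit had ranks 2447, 3516 and 2182 against 2234, 3253 and 3903 for PEK, so the PEK summit was the higher in replicates 1 and 2 and their order is not settled. Near the limits of the rule, the farthest summit counted lay 3210 bp from Ire1 and the nearest one not counted 5805 bp from Ire1, and the pooled summits next below the optimal list were those of sip3 at rank 7315 and Ire1 at rank 7324.

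**Figure D3:**
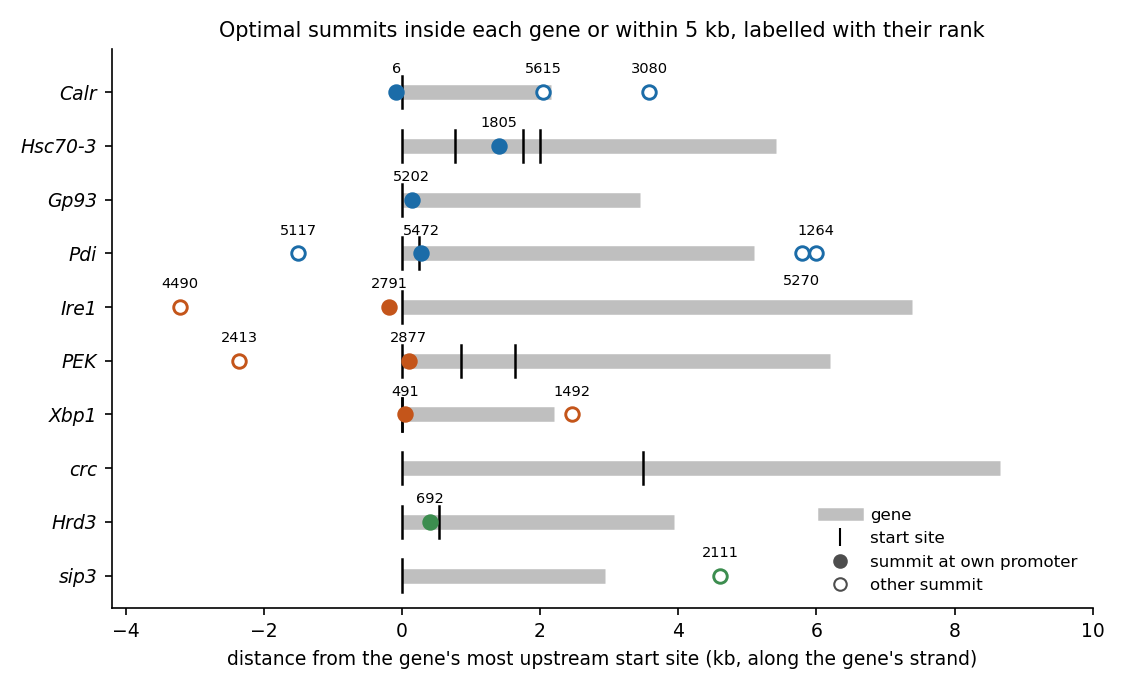
Position of the 17 optimal summits along each gene, in kb from its most upstream start site; grey bars are genes, black ticks are annotated start sites and numbers are ranks in the optimal list. Filled circles, 8 in number, are summits within 500 bp of an own start site, and the 9 open circles are other summits; crc has none.

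Most of these summits had a match in each replicate list of 30000 peaks. Of the 17 summits, 15 had a summit within 100 bp in each of the 3 replicates, against 85.9% of all optimal summits, and all 8 promoter summits were among the 15. The exceptions were the summit at CG8319 with rank 3080, which replicate 2 lacked, and 1 of the pair at CG12316 with rank 5270, which was matched in replicate 3 alone. The highest replicate rank of a promoter summit was a median of 1.67 times the lowest, against 1.87 times over the 5346 optimal summits matched in all replicates. Per gene this ratio ran from 1.08 at Xbp1 and 1.14 at Calr to 2.63 at Ire1. Mean replicate ranks were 732 ± 175 at Hrd3, 1955 ± 509 at Hsc70-3, 3130 ± 841 at PEK, 3966 ± 1779 at Ire1, 5239 ± 1261 at Gp93 and 6324 ± 1965 at Pdi (SD, n = 3 each). From Hsc70-3 on, the intervals of 1 SD of each gene and the next in this order overlap. The intervals of Hrd3 and Hsc70-3 do not overlap. Compared within each replicate, Hsc70-3 ranked above PEK in all 3. The order of PEK and Ire1, of Ire1 and Gp93, and of Gp93 and Pdi changed between replicates.

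Base composition moved with the replicate that ranked a summit higher. The median GC content within 50 bp of the 6221 highest summits was 41.6%, 42.6% and 35.6% in replicates 1, 2 and 3. Of the 15 matched summits, 5 had a GC content below the median of the optimal list, 38.6%, and all 5 ranked higher in replicate 3 than in replicates 1 and 2 (by the geometric mean of the 2 ranks). These include the summits of Hrd3 (20.8% GC) and Ire1 (30.7% GC). Of the 10 at or above the median, 3 ranked higher in replicate 3, and the summits of Hsc70-3 (47.5% GC) and Gp93 (53.5% GC) ranked lower there. Over the 15 summits, Spearman's rho of GC content with the log2 rank shift was -0.641 and Pearson's r was -0.743. Over all 5346 matched optimal summits rho was -0.426, and 72.9% of those below the median GC content ranked higher in replicate 3 against 34.7% of the rest. All points share the same 3 libraries. The part of base composition in the replicate ranks of these genes was not tested.

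**Figure D4:**
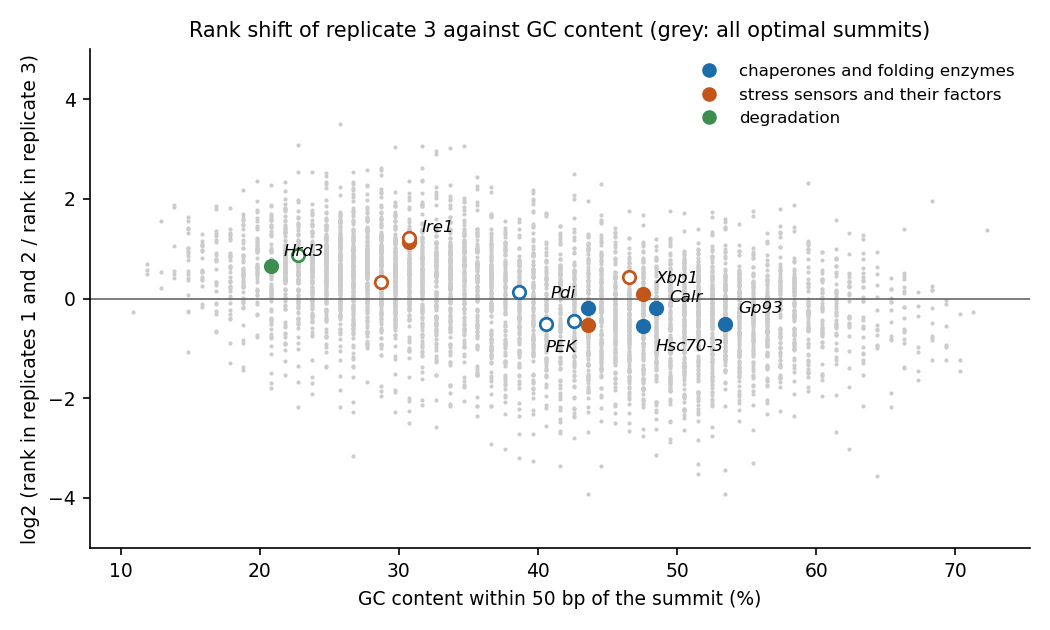
Rank shift of replicate 3, as the log2 of the geometric mean rank in replicates 1 and 2 over the rank in replicate 3, against GC content in percent within 50 bp of the summit. Grey points are the 5346 optimal summits matched in all replicates, filled circles the 8 promoter summits and open circles 7 other summits of these genes; the 5 below 38.6% GC lie above 0.

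The CCAAT box was about as frequent at these summits as in the whole optimal list. It lay within 50 bp, on either strand, at 2 of the 8 promoter summits, those of Calr and PEK, and at 5 of all 17, against 27.0% of the 6221 optimal summits. Calr had 3 boxes, and 3 or more were found at 0.756% of optimal summits. Counted at their first base along the gene, they lay 111, 95 and 73 bp upstream of the TSS, with the first in the opposite direction, and they spanned 43 bp in all. The summits of Calr in all 3 replicates kept the 3 boxes within 50 bp. Among the 20 highest peaks 12 had a box and 1, Calr, had 3. The box at PEK lay 61 bp downstream of the TSS. A separate window was set on the start sites, from 250 bp before to 50 bp after any TSS of the gene. In it 6 of the 10 genes had a box (Calr, Hsc70-3, Ire1, Gp93, PEK and Xbp1), against 53.4% of protein-coding genes. The box near the PEK summit lies outside this window, so the PEK box counted here is a different one.

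Of the ER stress elements known from mammals, neither form that joins CCAAT to CCACG was found at these genes. CCAAT followed by CCACG after 9 bases was at no member promoter or summit, and at 3 of 13945 gene promoters and 2 optimal summits. The second form, ATTGG and CCACG with 1 base between them, was in no promoter of any gene and at no optimal summit. CCACG alone was within 50 bp of 1 of the 8 promoter summits, that of Gp93, against 7.46% of optimal summits. At Gp93 it was the end of the TGACGTGG given below, read on the other strand, so it was not a separate site. TGATGCAA, a site of the kind bound by mammalian ATF4 with C/EBP, was in none of the 10 promoters and in 1.09% of all, and at none of the 17 summits and 0.241% of all.

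A site of the bZIP kind lay near the summits of other members. ACGTG was within 50 bp of 3 of the 8 promoter summits (Hsc70-3, Gp93 and Xbp1) and of none of the other 9, against 6.74% of optimal summits. All of these were part of the longer TGACGTG, a form chosen after the sequences were seen, so its count supports nothing. TGACGTG was within 50 bp at Xbp1, where there were 2 copies, 26 and 59 bp downstream of the TSS, and at Hsc70-3, and at 0.418% of optimal summits. At Gp93 it began 52 bp before the summit, as TGACGTGG, the form of the mammalian unfolded protein response element, 88 bp downstream of the TSS. None of these 3 summits had a CCAAT box within 50 bp, and neither Calr nor PEK had ACGTG within 50 bp. This separation did not hold in the window set on the start sites. There Hsc70-3, Ire1, PEK and Xbp1 each had the box together with ACGTG. Calr and Gp93 had the box alone, and sip3 had ACGTG alone. With so few summits, nothing is read from the separation at the summits. GAGAG, bound by the GAGA factor, was at 2 of the 8, PEK and Hsc70-3 (with 4 matches in overlapping pairs), against 18.0% of optimal summits.

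Among all peaks, those most like the one at Calr in their 3 replicate ranks lay close to it in the optimal list, at ranks 5, 7 and 9. By the mean absolute log2 rank difference over 3 replicates, the nearest were the peak closest to CG13321 (0.36, ranks 8, 6 and 5), that of lbe (0.39, ranks 5, 9 and 10) and that of scro (0.45, ranks 10, 11 and 7). The peak by CG13321 lay 2484 bp downstream of the TSS, those of the homeobox genes lbe and scro 29 and 232 bp upstream. Their widths were 1425, 1042 and 1152 bp, and they held 2, 1 and 0 CCAAT boxes, all below the values at Calr.

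Other genes of the same pathway were taken from a list of 50 that leaves out the 10. Of these, 20 (40.0%) had an optimal summit at the promoter, against 21.6% of protein-coding genes, with 9 of 20 folding genes, 6 of 13 sensing genes and 5 of 17 degradation genes. Their median rank was 3647.5, and 8 of the 50 had a promoter summit among the 3110 peaks with the highest signal (16.0%, against 11.5% of protein-coding genes). This list too was written with earlier results of these data known, so nothing is read from either difference. Of the 20 promoter summits, 16 had a TSS of the pathway gene itself as the nearest, and 16 were matched in all replicates.

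The strongest was shv, an Hsp40 cochaperone of the endoplasmic reticulum, with ranks 67, 65 and 52 in replicates 1, 2 and 3, 16 bp upstream of its TSS and 1044 bp wide. It stood second to Calr among all the folding genes measured here. Next came Fkbp14, a prolyl isomerase, with ranks 471, 474 and 333. After it were prtp, a thioredoxin-domain protein, with ranks 1678, 2267 and 1352, and GCS2beta, a subunit of glucosidase II, with ranks 4134, 3309 and 1877. The prtp summit lay 467 bp upstream of its TSS and nearer, at 431 bp, to a TSS of lncRNA:CR45618. The summits of shv, prtp, GCS2beta and Ero1L were the 4 of the 20 with a CCAAT box within 50 bp, against 27.0% of optimal summits. All 4 are folding genes, and with so few summits nothing is read from that. None of the 20 had TGACGTG there, against 0.418% of optimal summits.

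Among the sensing genes, Atf3, a bZIP stress factor, led with ranks 1022, 794 and 397, followed by Traf4, an adaptor of kinase signalling, with 1721, 2935 and 2780. BI-1, a membrane protein that limits cell death, had ranks 4438 and 2561 in replicates 2 and 3 and no match in replicate 1. Thor, the 4E-BP that restrains translation, had ranks 3106, 5343 and 8786. Among the degradation genes, Herp, a membrane component of the Hrd1 complex, had ranks 3105, 3458 and 1751. Faf2, an adaptor of the segregase TER94, had ranks 4389, 4629 and 1589. Edem2, which recognises misfolded glycoproteins, had ranks 4115 and 5344 in replicates 1 and 2 and no match in replicate 3, and Plap, another adaptor of TER94, had 5228, 4993 and 4315. All of these ranked below Calr in each replicate that held them.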

How the data were processed

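The authors called peaks on each of 3 replicates against 1 control alignment and on the pooled replicates, and derived an optimal list from them by the irreproducible discovery rate, per the readme texts deposited with the samples. The assembly is dm6 per the labels, and no source used here names the aligner or the peak caller. Each deposited list gives intervals, summits, a signal score (relation to depth not given, used only to rank peaks within a list) and the authors' −log10 q-value, used as an alternative ranking. Replicate and pooled lists hold 30000 peaks each, and all optimal peaks are the highest pooled peaks. Genes came from Ensembl release 115 (6 arms) and sequence from RefSeq, where 99.8% of annotated start codons read ATG. A replicate summit matched when nearest and within 100 bp. Motifs had to lie wholly within 50 bp of a summit. The members and lists were chosen with earlier results of these data known, and TGACGTG was added after the summit sequences were seen. Named pathway genes are the 4 with the highest rank per role, and peaks like Calr are the 3 nearest in replicate ranks. Of 58 pathway symbols, 50 gave a gene of its own (1 by synonym). No test was run, since there is 1 group. Motif counting and TSS distances were tested on simulated data. Python 3.11.15 and pandas 2.3.3 were used.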

Additional observations from a re-analysis of the deposited data

How the results depend on the processing

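The count of genes with a promoter summit, 8 of 10, ran from 6 to 8 over all alternatives, and was 8 without each replicate in turn. With the 3110 highest peaks, or in replicate 3, Gp93 and Pdi were lost, and in replicate 2 Pdi was lost and sip3 gained. Of all protein-coding genes, 11.5% had a promoter summit among the 3110 highest peaks. The share was 21.1%, 19% and 22.6% with the 6221 highest peaks of replicates 1, 2 and 3. As above, nothing is read from the difference, since the genes were chosen with such peaks known. The count of other pathway genes, 20 of 50, was 16 to 18 without each replicate in turn and 8 with the 3110 highest peaks. The median rank of the strongest summit, 1805, was 2298 when limited to own promoters, and 1698 to 2206.5 as a mean replicate rank without each replicate in turn. The median width, 444 bp, was 490 bp in replicate 2, its common width. The 15 summits matched in all replicates were 15 to 16 without each replicate in turn. They were 13 with a match within 50 bp and 17 within 200 bp. With only the 6221 highest peaks of each replicate in place of all 30000, 10 of the 17 were matched. The share of all optimal summits at this setting was not counted.

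The CCAAT count, 5 of 17, depended on the exact summit. It was 2 within 25 bp, 3 of 17 matched summits in replicate 3 and 1 of 15 in replicate 2 (Calr). Windows centred 500 bp to either side gave 2 and 1. The cause was not tested. No comparison between groups was possible because there is 1 group. Depth is unknown, so no limit on weak peaks can be given.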

Other observations

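Below the optimal list, the pooled list held 39 more summits inside these genes or within 5 kb, 11 of them at an own promoter. Hsc70-3 had 4 of the 11, at pooled ranks 8340, 10857, 13805 and 19535, spread over its start sites, so its promoter region carried several weak summits beside the optimal one. Hrd3 had 1, at pooled rank 8346, in its 5′ UTR and 25 bp from the TSS of PTPMT1, with a CCAAT box within 50 bp. Replicates 1 and 2 ranked that summit at 1649 and 4233, and replicate 3 had no summit within 100 bp of it.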
